A study of Mus musculus with 20 samples.

Results

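Rag1, Rag2, Dntt, Ptcra, Cd4, Cd8a, Cd8b1, Il2ra, Kit and Cd44 are 10 genes that mark the steps of thymocyte development and of antigen receptor gene assembly. They were taken by gene symbol from 2 deposited expression tables of mouse leukemic spleens, and all 10 of the 10 symbols were found among 26099 genes of the acute table and 26486 genes of the survival table. The spleens came from sub-lethally irradiated mice that had been injected intravenously with T-cell acute lymphoblastic leukemia (T-ALL) carrying a conditional knockout of Acly, the gene of ATP-citrate lyase. RNA sequencing of polyadenylated, strand-specific libraries covered 20 libraries in 4 groups, and every group, controls included, carried the conditional allele.

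The acute arm used mice that were already overtly leukemic. They were given tamoxifen (3 mg per mouse by intraperitoneal injection, the knockout group of 4 libraries) or corn oil alone (the control group of 6 libraries), and spleens were collected after 72 h. In the survival arm, the same tamoxifen dose (knockout, 5 libraries) or corn oil (control, 5 libraries) was given 48 h after transplantation, and samples were taken at the humane endpoint. Tamoxifen and deletion of Acly cannot be told apart in these groups, and the Cre driver, the deleted exons and the number of independent leukemias are not in the labels. Ages and sexes of the mice are not in the labels either. Spleens were filtered and red cells lysed, with no sort named, so each library holds whatever cells were in the suspension. Whether every library comes from its own mouse is not stated, so p-values measure the spread between libraries, which may be technical.

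Thymocytes begin as double-negative (DN) cells without CD4 or CD8. Their earliest cells display KIT and CD44, CD25 (Il2ra) appears at the DN2 stage while both are still present, and DN3 cells keep CD25 without them. CD25 is lost after beta selection through the pre-T-cell receptor, which leads to double-positive (DP) cells with both coreceptors. RAG1 and RAG2 together cut DNA beside V, D and J segments, first at the beta, gamma and delta loci and later at the alpha locus, and terminal transferase, encoded by Dntt, adds untemplated bases at the joints. T-ALLs are usually compared with the stage of this ladder whose genes they display.

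The promoters of 4 members are shown because these genes serve receptor gene assembly and the pre-T-cell receptor. Each run holds 250 bases before to 50 bases after the transcription start on the gene's own strand, from RefSeq on build GRCm38.p6. Capitals mark E-boxes, the letters CANNTG, which are the same on both strands and are the class of site bound by E proteins such as E2A (Tcf3) and HEB (Tcf12). The regions are chr2:101649483-101649782, minus strand, for Rag1; chr2:101624462-101624761, plus strand, for Rag2; chr19:41029025-41029324, plus strand, for Dntt; and chr17:46763663-46763962, minus strand, for Ptcra.
Rag1: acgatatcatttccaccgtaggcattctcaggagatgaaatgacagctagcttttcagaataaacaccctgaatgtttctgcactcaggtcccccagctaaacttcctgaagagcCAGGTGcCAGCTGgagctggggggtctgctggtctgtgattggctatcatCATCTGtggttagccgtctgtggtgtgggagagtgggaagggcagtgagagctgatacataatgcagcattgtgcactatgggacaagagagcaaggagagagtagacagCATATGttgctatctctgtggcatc
Rag2: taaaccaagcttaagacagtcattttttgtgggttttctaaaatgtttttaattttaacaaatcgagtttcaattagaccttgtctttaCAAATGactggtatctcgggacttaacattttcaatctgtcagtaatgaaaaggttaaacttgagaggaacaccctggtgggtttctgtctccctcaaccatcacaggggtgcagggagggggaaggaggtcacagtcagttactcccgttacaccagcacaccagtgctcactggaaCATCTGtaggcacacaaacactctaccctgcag
Dntt: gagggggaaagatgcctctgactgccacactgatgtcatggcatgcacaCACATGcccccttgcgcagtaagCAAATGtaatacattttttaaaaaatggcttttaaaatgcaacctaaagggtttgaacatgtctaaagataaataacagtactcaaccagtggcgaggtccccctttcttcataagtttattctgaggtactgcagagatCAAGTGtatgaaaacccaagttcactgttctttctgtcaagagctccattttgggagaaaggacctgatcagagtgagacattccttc
Ptcra: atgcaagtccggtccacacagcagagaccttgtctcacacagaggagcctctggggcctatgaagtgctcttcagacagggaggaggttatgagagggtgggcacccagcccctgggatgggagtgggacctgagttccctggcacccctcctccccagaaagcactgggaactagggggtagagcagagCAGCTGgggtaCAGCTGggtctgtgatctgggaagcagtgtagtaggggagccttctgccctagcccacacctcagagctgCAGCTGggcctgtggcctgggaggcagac
These windows hold 4 E-boxes for Rag1, 2 for Rag2, 3 for Dntt and 3 for Ptcra. The promoter table matched 8 of the 10 members, and the other windows hold 3 E-boxes for Cd8a, 1 for Kit and 0 for Il2ra and Cd44. At least 1 E-box stands in 72.1% of all 27025 promoters of this length, and 3 or more stand in 17.5% of them. A match describes these letters only and is not a measured binding site.

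Some libraries stood apart. Acly RNA, the check of the labels, averaged 5670 ± 766 normalized counts in acute knockouts and 7735 ± 298 in acute controls, and 3091 ± 712 in survival knockouts and 7889 ± 561 in survival controls (SD, n = 4, 6, 5 and 5), with no overlap in either arm. Acly was thus at 39.2% of its control level in the survival arm and at 73.3% in the acute arm, where Cd3d, a T-cell gene, was also at 73.3%. After rescaling to the summed Trbc1 and Trbc2, Acly was not called in the acute arm (log2 fold change -0.081, SE 0.142, limma adjusted p = 0.654). All 10 neutrophil markers, with Ngp and Ltf the most abundant, and all 8 monocyte and macrophage markers, led by Lyz2 and Ly6c2, were called higher in acute knockouts, and none of these markers was at 0 in a whole group. Their summed count was 178079 to 602417 in acute knockouts and 11879 to 49125 in acute controls for neutrophils, and 20315 to 62636 in acute knockouts and 2536 to 6137 in acute controls for monocytes and macrophages. A score averaging the standardized log2 values of all other-cell markers was 0.32, 1.42, 1.21 and 0.80 in acute knockouts 1 to 4, above all acute controls (-0.92 to -0.27). In the survival arm the score overlapped, from -0.44 to 0.60 in knockouts and from -0.16 to 0.36 in controls. Survival knockouts 1 and 2 were the only libraries of the 20 with more Trbc2 than Trbc1, the T-cell receptor beta constant genes: 22077 and 22414 normalized counts of Trbc2 against 18130 and 18294 of Trbc1. Those genes are near-identical copies, so how their reads were split is uncertain.

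In control spleens Dntt, Ptcra, Rag1, both Cd8 chains and Il2ra were high, Rag2 and Cd4 stood in between, and Kit and Cd44 were low. In a normal thymus, Il2ra and Ptcra with little Kit and Cd44 mark DN3 cells, while Cd8 and Cd4 belong to later steps. RNA of a whole suspension does not show whether 1 cell carries the DN3 genes and the coreceptors together. On the scale of normalized counts per kilobase of each gene's longest transcript, Dntt led with 10414 ± 709 in acute controls (SD, n = 6). Ptcra, the alpha chain of the pre-T-cell receptor, followed at 8549 ± 245. Rag1, the catalytic chain of the recombinase, stood at 5150 ± 331. These 3 genes ranked 111, 134 and 212 among 23514 genes with a length.

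Cd8a and Cd8b1, the chains of the CD8 coreceptor, and Il2ra, the CD25 chain of the interleukin-2 receptor, formed the next tier in acute controls. They stood at 3735 ± 100, 3312 ± 156 and 3621 ± 158 counts per kilobase. Cd4 stood at 763 ± 88.5 counts per kilobase, beside Rag2, the partner of RAG1, at 781 ± 59.7. The Cd4 and Rag2 ranges overlapped, as did those of Il2ra with both of its neighbours, Cd8a and Cd8b1. The other 6 of 9 neighbouring pairs in the order did not overlap. Cd44, the hyaluronan receptor, and Kit, the stem cell factor receptor, came last at 64.1 ± 11.96 and 17.9 ± 4.8 counts per kilobase, ranks 9024 and 11759.

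Survival controls had the same order except that Il2ra stood above Cd8a. Dntt reached 9197 ± 873 counts per kilobase there, Ptcra 8929 ± 953 and Rag1 5148 ± 414 (SD, n = 5). Cd4 was at 660 ± 164, Cd44 at 61.6 ± 8.0 and Kit at 27.8 ± 11.2. In these controls the ranges of Dntt and Ptcra, of Il2ra and Cd8a and of Rag2 and Cd4 overlapped, and the other 6 of 9 neighbouring pairs did not. The split of the order between the high tier and the low pair of Cd44 and Kit was therefore seen in both tables, which were normalized separately. With coding length in place of transcript length the upper order changed to Il2ra, Ptcra, Cd8a, Dntt, Rag1 and Cd8b1 in both tables, and Cd44 and Kit again came last.

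Other stage genes placed around the 10 are described here by level alone. Genes of the DN3 stage and of beta selection ran in acute controls from 489 counts per kilobase for Il7r, a cytokine receptor, to 7748 for Notch1, the receptor that drives early T-lineage growth. Of the DP genes, Ly6d stood at 7092, Ets2 at 2068, Themis at 872, Bcl2l1 at 844, Arpp21 at 838 and Aqp11 at 443. Lower in that list were Cd1d1 at 216, Plxnd1 at 121, Trac at 22.8 and Ccr9, a homing receptor, at 4.5. The levels of the DN3 and DP lists thus overlapped. Early progenitor genes lay between 0.8 for Hoxa9 and 183 for Lmo2, with Cd34 at 3.4 and Flt3 at 5.5. Genes of single-positive and mature cells spread from 1.2 for Foxp3 to 650 for Cd6, with Ccr7, the receptor for lymph node homing, at 19.7.

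Trac, the constant region of the T-cell receptor alpha chain, was scarce where the beta constant genes were abundant. Its normalized count was 37.6, 57.8, 45.5 and 33.6 in acute knockouts 1 to 4, against 0 to 51.5 in acute controls (median 19.1). In the survival arm it was 0, 6.27, 26.6, 39.2 and 53.2 in knockouts 1 to 5 and 19.96, 8.10, 0, 0 and 0 in controls 1 to 5. Trbc1 alone had 13768 to 18128 normalized counts in acute knockouts and 18462 to 21864 in acute controls. An exact 0 can be a failed estimate, and how transcripts of receptor constant regions entered the quantification is not given in the sources used here.

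**Figure D1:**
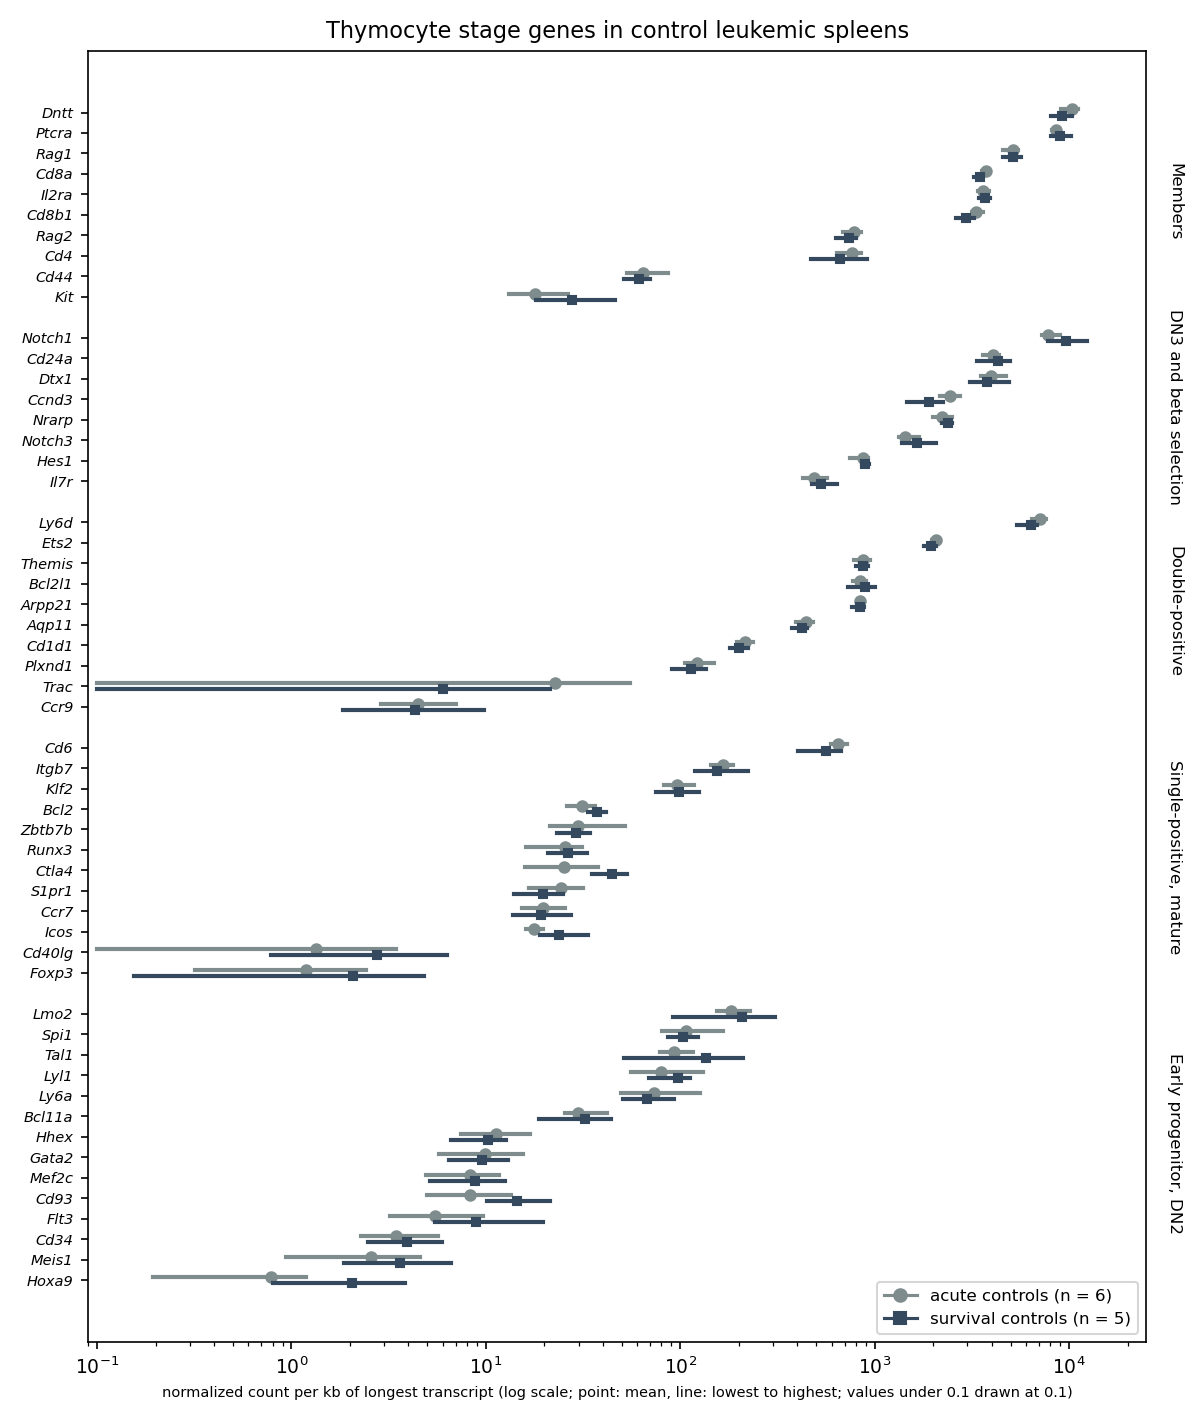
Normalized counts per kilobase of longest transcript (log axis) for the 10 members and genes of 4 stage lists in acute controls (n = 6) and survival controls (n = 5), with points for means and lines from the lowest to the highest library. Dntt, Ptcra and Rag1 lie at 4546 or above in every control library, and Cd44 and Kit lie at 86.4 or below.

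At 72 h after tamoxifen, 9 of the 10 genes differed in the acute arm as deposited: the recombination genes, Ptcra, both Cd8 chains and Il2ra were lower and Kit and Cd44 were higher in knockout spleens, and Dntt, Cd8a, Cd8b1 and Il2ra were no longer called once libraries were rescaled to T-cell genes. limma called 9 of 10 members at an adjusted p under 0.05, 2 higher and 7 lower, where 31.4% of all 16363 genes tested were called (16.7% higher, 14.7% lower). The groups did not overlap for the same number of members, 9 of 10, against 22.7% of all genes (12.7% with knockouts higher, 9.94% lower). In whole-spleen RNA, fewer cells of a type and less RNA per cell cannot be told apart.

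Rag1 had 24508, 18082, 22088 and 24697 normalized counts in knockouts 1 to 4, against 30043 to 36133 in controls (median 34311). Every knockout lay below every control, and knockout 2 was the lowest. Its mean reached 65.7% of the control mean, a log2 fold change of -0.62 (SE 0.0857, adjusted p = 3.10e-04). Rag2 had 1966, 1407, 1613 and 1966 normalized counts in knockouts and 2359 to 2916 in controls (median 2710). Its groups did not overlap either, and knockouts 2 and 3 were again the lowest. Its log2 fold change was -0.63 (SE 0.0956, adjusted p = 5.29e-04), close to that of Rag1, with which it forms 1 enzyme.

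Dntt had 18654, 13956, 15760 and 17656 normalized counts in knockouts and 19264 to 23655 in controls (median 22519). Knockout 1 came within a narrow gap of the lowest control without crossing it. The log2 fold change was -0.43 (SE 0.0807, adjusted p = 0.00193). Ptcra had 8322, 5384, 7314 and 7798 normalized counts in knockouts and 10533 to 11434 in controls (median 11010). Its controls varied little, and all 4 knockouts lay well below them. The log2 fold change was -0.62 (SE 0.0966, adjusted p = 6.15e-04).

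**Figure D2:**
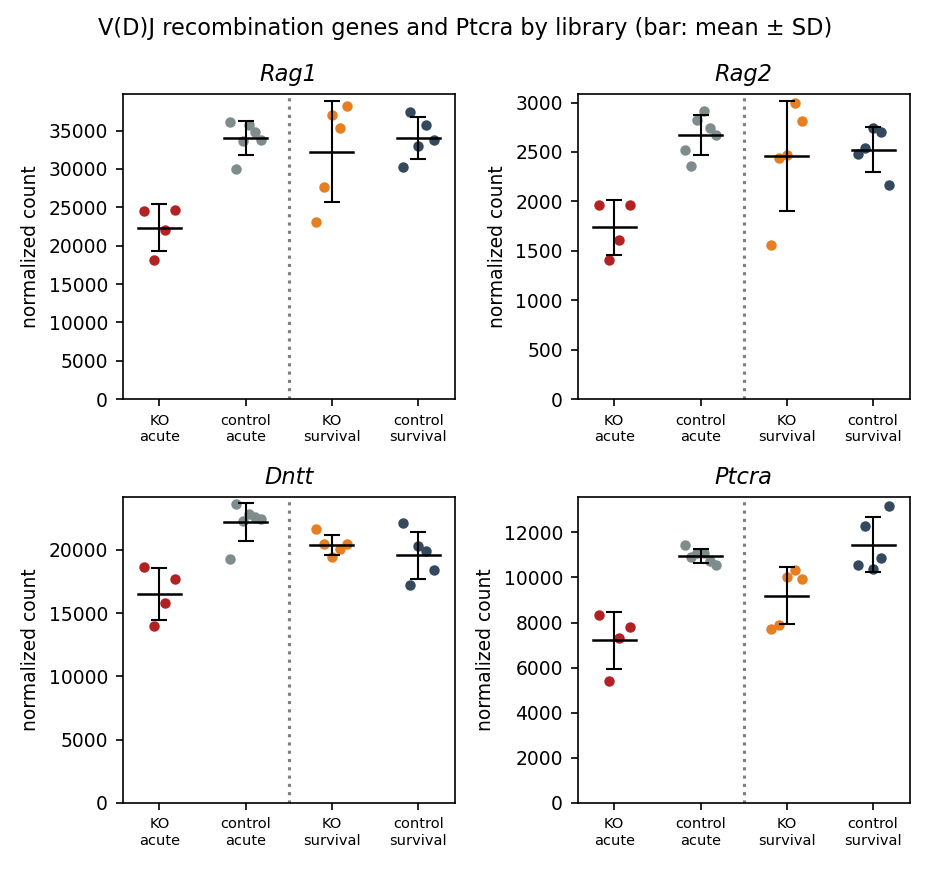
Normalized counts (vertical axes, from 0) of Rag1, Rag2, Dntt and Ptcra in each library of the acute arm (left of the dotted line, 4 knockouts then 6 controls) and the survival arm (right, 5 knockouts then 5 controls), with bars for mean ± SD. Acute knockouts lie below all acute controls in each panel, and survival knockouts 1 and 2 are the lowest Rag1 points of their arm.

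Of the coreceptor genes, both Cd8 chains were lower as deposited and Cd4 was not called. Cd8a had 9157, 7411, 8274 and 9842 normalized counts in knockouts and 11173 to 11985 in controls (median 11742). All knockouts were lower than all controls (log2 fold change -0.44, SE 0.0677, adjusted p = 6.15e-04). Cd8b1 had 4020, 3443, 4213 and 4055 normalized counts in knockouts and 4685 to 5330 in controls (median 4827). It was also lower without overlap (log2 fold change -0.32, SE 0.0593, adjusted p = 0.00173); after rescaling to CD3 genes it was at 0.026 and not called. Cd4 encodes a coreceptor for MHC class II that helper-lineage and DP cells carry, and some dendritic cells make it too. Cd4 had 2214, 2732, 3220 and 2690 normalized counts in knockouts and 1995 to 2656 in controls (median 2367). Its groups overlapped, with 3 knockouts above every control, and it was not called (log2 fold change 0.19, SE 0.106, adjusted p = 0.198). Without knockout 1 it was called higher at 0.28 (SE 0.0986, adjusted p = 0.045).

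Il2ra had 13670, 10054, 11472 and 13005 normalized counts in knockouts and 14937 to 17096 in controls (median 15962). Knockouts lay below all controls, and its log2 fold change was -0.42 (SE 0.0764, adjusted p = 0.00175). Kit had 228, 436, 353 and 175 normalized counts in knockouts and 68.7 to 138 in controls (median 90.4). Each knockout exceeded each control, with knockouts 2 and 3 the highest (3.04-fold, log2 fold change 1.61, SE 0.258, adjusted p = 7.82e-04). Cd44 had 1041, 2996, 2056 and 1384 normalized counts in knockouts and 299 to 485 in controls (median 343). It was 4.85-fold higher (log2 fold change 2.28, SE 0.242, adjusted p = 5.51e-05), and its knockouts stood in the same order as the score of other cell types. Kit is also carried by mast cells and stem cells and Cd44 by most myeloid cells. The 4 mast cell and basophil markers, led by Mcpt8 and Cpa3, summed to 248 to 615 normalized counts in acute knockouts and 6.96 to 46.6 in acute controls, and their part in the result for Kit was not tested.

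**Figure D3:**
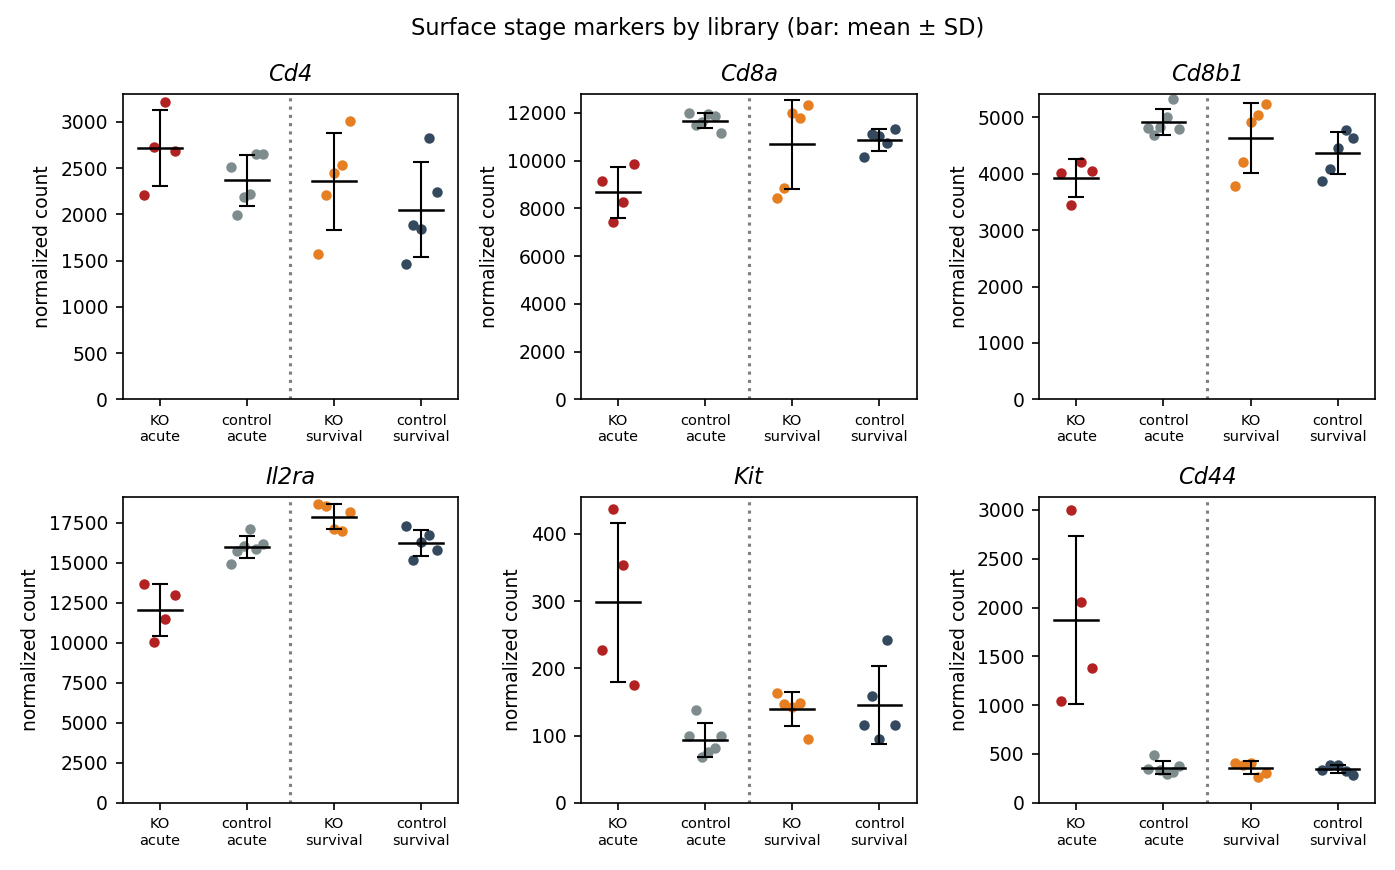
Normalized counts (vertical axes, from 0) of the surface markers Cd4, Cd8a, Cd8b1, Il2ra, Kit and Cd44 by library, with bars for mean ± SD, the acute arm left of the dotted line and knockouts left of controls in each arm. Kit and Cd44 are higher in all 4 acute knockouts than in the 6 acute controls and overlap in the survival arm, and Cd4 overlaps in both arms.

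Pan T-cell genes were lower in the same libraries. Of 11 tested, 10 fell and 0 rose (median log2 change -0.34, against -0.02 over all genes). Cd3d, a chain of the CD3 complex, changed by -0.46, Cd3g by -0.45 and Lck, the kinase of the receptor complex, by -0.40. When libraries were rescaled to equal levels of Cd3d, Cd3e, Cd3g, Cd247, Lck and Zap70, the median of all genes shifted to 0.32 and 6 of the 10 members were called. Of all 16363 genes, 7822 were called under that scaling, 7677 higher and 145 lower. Rag1 (-0.27, SE 0.0636, adjusted p = 0.005), Rag2 (-0.28, SE 0.0714, adjusted p = 0.00671) and Ptcra (-0.28, SE 0.0608, adjusted p = 0.00321) were still lower. Kit (1.95) and Cd44 (2.63) were still higher, and Cd4 was now higher (0.54, SE 0.14, adjusted p = 0.00787). Dntt (-0.083), Cd8a (-0.088), Il2ra (-0.066) and Cd8b1 (0.026) were no longer called. Rescaling to the summed Trbc1 and Trbc2 gave the same 3 higher and 3 lower members, where 7355 of all genes were higher and 94 lower.

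Without knockouts 2 and 3, the libraries with the highest other-cell score, 9 members were still called and Cd4 was still not. Over all genes 2039 were called in that setting, 1319 higher and 720 lower. Rag1 was then -0.47, Rag2 -0.44, Ptcra -0.44, Dntt -0.29, Cd8a -0.30, Cd8b1 -0.28, Il2ra -0.26, Kit 1.12 and Cd44 1.75 on the log2 scale. With that score added to the model no member was called, the log2 values ran from -0.16 for Dntt to 0.36 for Cd44, and no gene of the 16363 was called. Since every acute knockout had a higher score than every control, the score and the knockout cannot be told apart in that fit.

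**Figure D4:**
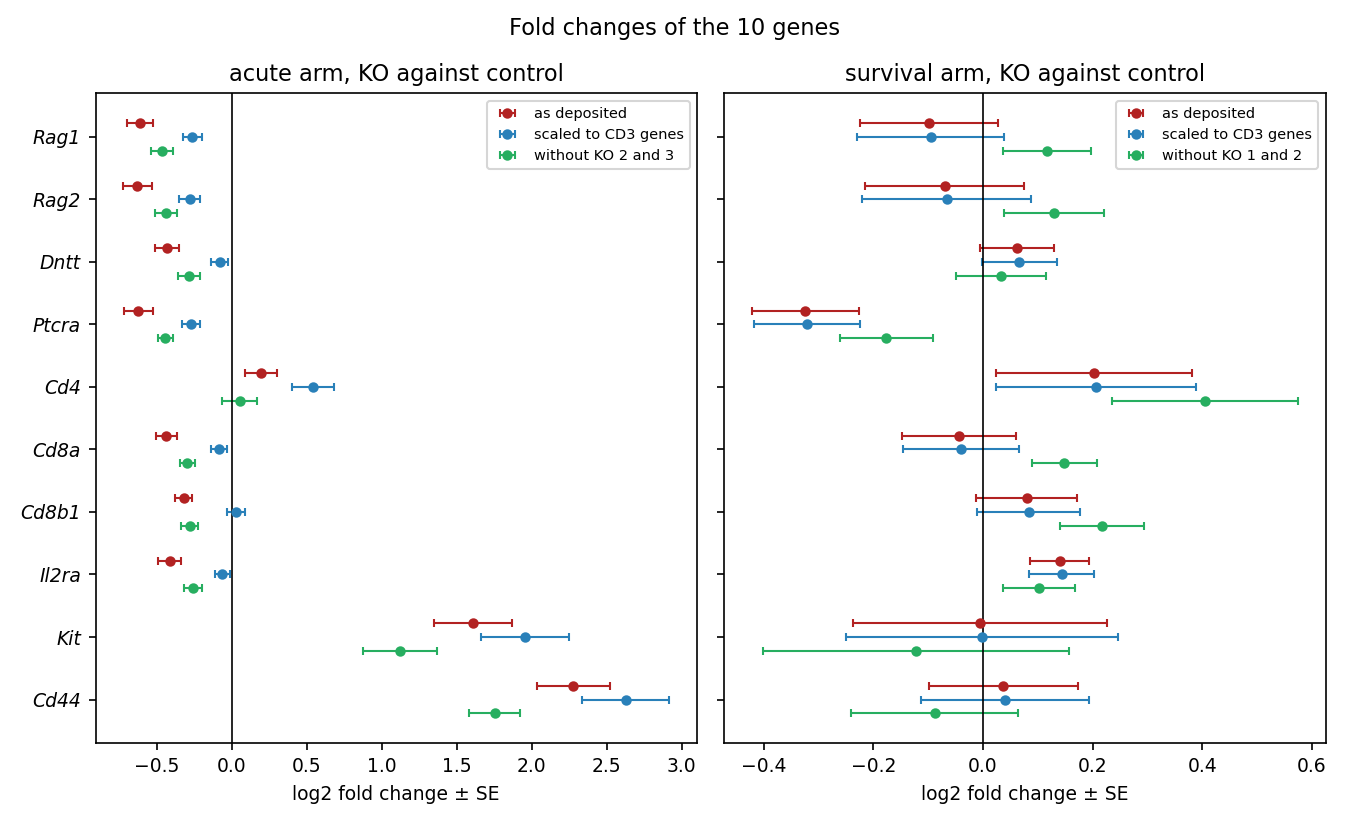
Log2 fold changes ± SE (horizontal axes) of the 10 genes, knockout against control, in the acute arm (left) and survival arm (right) as deposited, after rescaling to the CD3 and signalling genes, and without the pair of knockout libraries that stood apart. In the acute arm Rag1, Rag2 and Ptcra lie below 0 and Kit and Cd44 above 0 under all 3 settings, while Cd8b1 lies at -0.32 as deposited and at 0.026 after rescaling.

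At the endpoint of the survival arm no member was called. limma called 0 of 10 members, where 0.0124% of 16136 genes were called, and 2 members reached an unadjusted p under 0.05, against 8.74% of all genes. No alternative setting called a member in this arm. The groups did not overlap for 1 member, Ptcra, against 2.01% of all genes (0.793% with knockouts lower).

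Rag1 had 23108, 27696, 36973, 35289 and 38172 normalized counts in knockouts 1 to 5 and 30212, 37388, 32998, 35758 and 33719 in controls 1 to 5. Knockouts 1 and 2 lay below all controls and the other knockouts among or above the upper controls. The log2 fold change was -0.10 (SE 0.126, adjusted p = 0.841), and 0.12 (SE 0.0805, adjusted p = 0.895) without knockouts 1 and 2. Rag2 had 1555, 2440, 2473, 3000 and 2811 normalized counts in knockouts and 2479, 2542, 2738, 2703 and 2164 in controls. Only knockout 1 was below the lowest control (log2 fold change -0.07, SE 0.145). Dntt did not share that spread, with 21620, 20432, 19405, 20082 and 20433 normalized counts in knockouts and 22102, 17253, 20324, 19877 and 18392 in controls. Its knockouts all lay within the range of controls (log2 fold change 0.06, SE 0.0673, adjusted p = 0.813).

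Ptcra had 7722, 7901, 10004, 10352 and 9929 normalized counts in survival knockouts and 10562, 12287, 10381, 10867 and 13183 in controls. All knockouts were below all controls, the nearest pair by under 30 counts, and the log2 fold change was -0.32 (SE 0.0978, unadjusted p = 0.0056, adjusted p = 0.316). Without knockouts 1 and 2 it was -0.18 (SE 0.0847, adjusted p = 0.848). Il2ra had 18654, 18526, 17082, 17004 and 18178 normalized counts in knockouts and 17278, 15155, 16286, 16708 and 15770 in controls. Here knockouts 1 and 2 were the highest of the arm, and the groups overlapped (log2 fold change 0.14, SE 0.0542, unadjusted p = 0.0227, adjusted p = 0.456).

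Cd8a had 8428, 8849, 11991, 11806 and 12323 normalized counts in survival knockouts and 10171, 11123, 11022, 10720 and 11324 in controls. Knockouts 1 and 2 were below all controls and knockouts 3, 4 and 5 above all of them, so the mean change was -0.04 (SE 0.104) on the log2 scale. Cd8b1 had 3783, 4200, 4923, 5034 and 5237 normalized counts in knockouts and 3873, 4090, 4453, 4785 and 4634 in controls. Knockout 1 was below all controls and knockouts 3, 4 and 5 above all of them (log2 fold change 0.08, SE 0.0921). Cd4 had 1576, 2215, 2445, 2540 and 3010 normalized counts in knockouts and 1468, 1882, 1847, 2822 and 2244 in controls, overlapping widely (log2 fold change 0.20, SE 0.178). Kit had 163, 147, 143, 148 and 95.4 normalized counts in knockouts and 116, 159, 95.2, 242 and 116 in controls. Cd44 had 411, 391, 410, 268 and 307 normalized counts in knockouts and 333, 391, 392, 323 and 289 in controls. Both overlapped, with log2 fold changes of -0.0053 (SE 0.231) for Kit and 0.04 (SE 0.136) for Cd44. The libraries that gave low Rag1 and Cd8a were the same pair that had more Trbc2 than Trbc1, and the part of this in these values was not tested.

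The fold changes of most members differed between the arms. For 8 of 10 members the survival fold change less the acute one passed the threshold over all 20 libraries, 6 with a positive and 2 with a negative difference, where 20.2% of 15673 genes did (9.39% positive, 10.9% negative). The differences were largest for Cd44 at -2.24 (SE 0.295, adjusted p = 3.12e-05) and Kit at -1.61 (SE 0.368, adjusted p = 0.00397). Il2ra, lower in acute knockouts and not called in the survival arm, differed by 0.56 (SE 0.0939, adjusted p = 2.84e-04). Rag1 differed by 0.52 (SE 0.164, adjusted p = 0.0307), Rag2 by 0.56 (SE 0.188, adjusted p = 0.04) and Dntt by 0.49 (SE 0.108, adjusted p = 0.0027). Cd8a differed by 0.39 (adjusted p = 0.0398) and Cd8b1 by 0.40 (adjusted p = 0.0173). Ptcra (0.30, SE 0.146, adjusted p = 0.155) and Cd4 (0.01, SE 0.227) did not pass, and Ptcra passed at 0.45 (adjusted p = 0.0327) without survival knockouts 1 and 2. Without acute knockouts 2 and 3 the members called were 3 of 10, namely Dntt (0.35), Il2ra (0.40) and Cd44 (-1.72). Over all genes 1263 were then called, 384 positive and 879 negative. After rescaling to the CD3 and signalling genes the members called were also 3, 1 positive and 2 negative. There 5016 of all 15673 genes were called, 92 positive and 4924 negative.

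Ratios of 2 genes within a library do not depend on how that library was scaled, but they can depend on its mix of cells. In each arm 6 were compared, 12 tests in all. The log2 ratio of Cd8a to Cd4 was 2.05, 1.44, 1.36 and 1.87 in acute knockouts and 2.07 to 2.53 in acute controls, so the groups just failed to overlap. Its mean was lower by a difference of -0.63 (adjusted p = 0.0381; the exact two-sided permutation test gave p = 0.00952, the minimum over its 210 arrangements). Without knockouts 2 and 3 the difference was -0.35, in a design too small to pass (exact test, adjusted p = 0.171). Those knockouts had the lowest ratios and the highest scores of other cell types (1.42 and 1.21), and the part of other cells in this ratio was not tested. The log2 ratio of Il2ra to Ptcra was 0.72, 0.90, 0.65 and 0.74 in acute knockouts and 0.39 to 0.62 in acute controls. It was higher by 0.21 (exact two-sided permutation p = 0.00952, adjusted p = 0.0381).

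In the survival arm the ratio of Il2ra to Ptcra was 1.27, 1.23, 0.77, 0.72 and 0.87 in knockouts and 0.71, 0.30, 0.65, 0.62 and 0.26 in controls. Knockouts again lay above all controls, by 0.46 on average (adjusted p = 0.0381; the exact two-sided permutation test gave p = 0.00794, the minimum over its 252 arrangements). Without survival knockouts 1 and 2 the difference was 0.28, in a design too small to pass (exact test, adjusted p = 0.107). The knockouts left still lay above all controls. The ratio of Rag2 to Rag1 stayed within a narrow band, from -3.77 to -3.64 in acute knockouts and -3.84 to -3.57 in acute controls, with a difference of -0.017 (exact permutation p = 0.771). The remaining ratios overlapped between groups, among them Ptcra to Rag1 in the survival arm, which was lower by a difference of -0.23 and failed the correction (exact permutation p = 0.0397, adjusted p = 0.119).

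**Figure D5:**
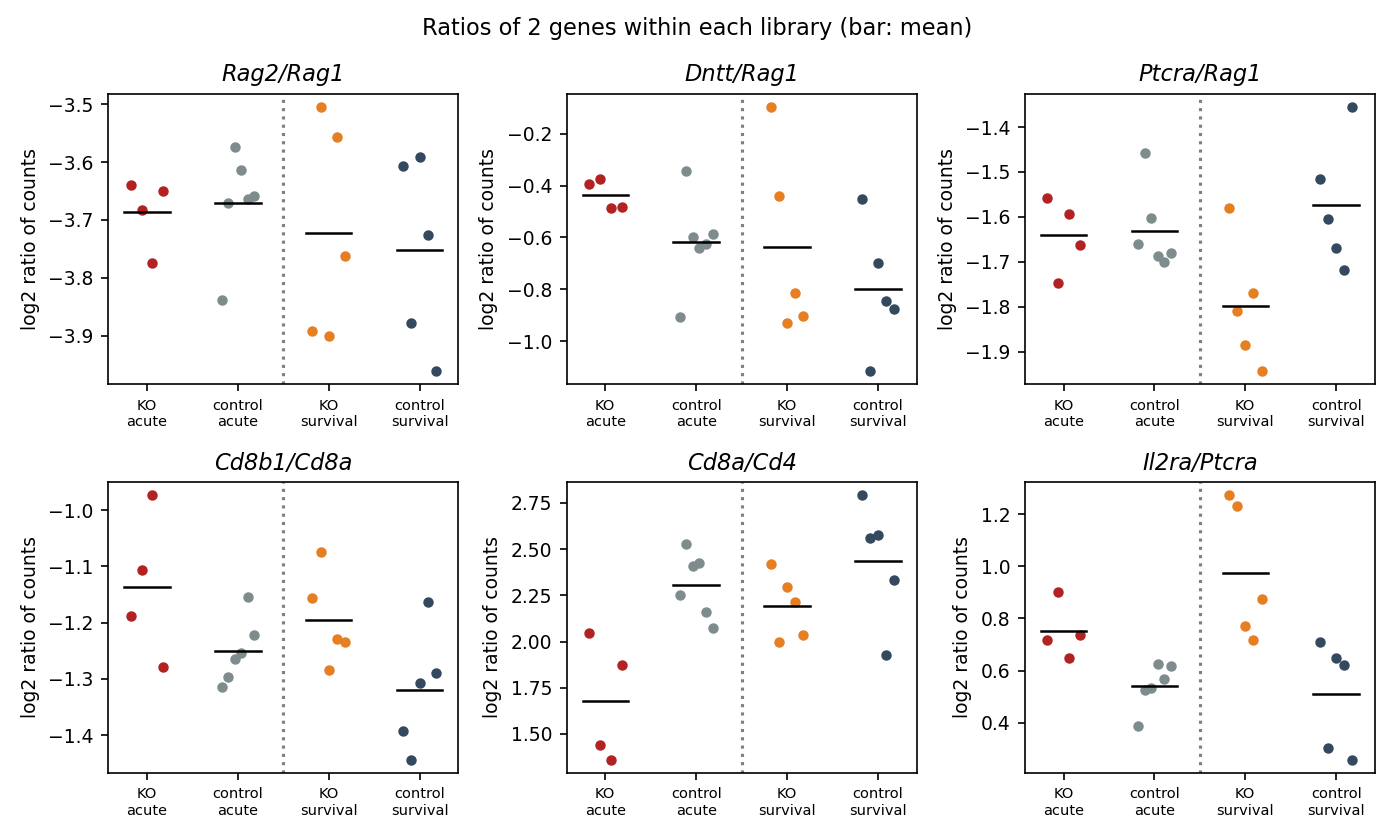
Log2 ratios of the normalized counts of 2 genes within each library (vertical axes) for 6 pairs of members, with bars for means, the acute arm left of the dotted line and knockouts left of controls. Il2ra/Ptcra lies higher in all knockouts than in all controls of each arm, and Cd8a/Cd4 lies lower in all 4 acute knockouts than in the 6 acute controls.

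The genes that work with RAG and those that set the stage are counted here with no test of the lists. Of 15 end-joining and recombination cofactors, 2 rose and 4 fell in the acute arm (median -0.05), where 16.7% of all genes rose and 14.7% fell. The Ku subunits, which bind broken DNA ends, were among those that fell: Xrcc6 (-0.50, adjusted p = 0.00174) and Xrcc5 (-0.40, adjusted p = 5.16e-04). After rescaling to the CD3 and signalling genes the count was 8 higher and 0 lower, where 7677 of all 16363 genes were higher and 145 lower. Of 14 stage transcription factors, 1 rose and 7 fell (median -0.19). HEB (Tcf12) changed by -0.41, TCF1 (Tcf7), a factor of T-lineage commitment, by -0.30, and Id2, which holds E proteins off DNA, by 0.39. After the same rescaling it was 6 higher and 0 lower, and without knockouts 2 and 3 it was 0 higher and 1 lower.

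The stage lists were counted against the same shares of all genes, 16.7% higher and 14.7% lower. Of 14 early progenitor genes, 12 rose and 0 fell in acute knockouts (median 2.03), with Cd34, a stem and progenitor surface protein, at 3.58, Spi1, the PU.1 factor that myeloid cells also use, at 3.08 and Hhex at 2.48. Without knockouts 2 and 3 it was 10 higher and 0 lower of 13 tested. Of 8 DN3 genes 0 rose and 3 fell (median -0.23), led by Il7r at -0.67, Notch3 at -0.44 and Nrarp, a NOTCH target, at -0.37. Of 11 DP genes 2 rose and 5 fell (median -0.23), with Plxnd1 at 0.85, Arpp21 at -0.58 and Ly6d at -0.52. Of 12 mature T-cell genes tested 9 rose and 1 fell (median 1.45), among them Zbtb7b, the CD4-lineage factor, at 3.08, Ccr7 at 1.81 and Runx3, the CD8-lineage factor, at 1.71. Of 6 gamma delta genes 2 rose and 4 fell (median -0.29), with Trgc1 at -0.54, Trgc4 at -0.40 and Trgc2 at -0.37. Trgc1 and Trgc2 are near-identical copies, so how their reads were split is uncertain. Without knockout 2 the gamma delta count was 0 higher and 2 lower of 5 tested, without knockouts 2 and 3 it was 0 higher and 0 lower of 5, and after rescaling to the CD3 and signalling genes it was 2 higher and 0 lower of 6. After rescaling to the CD3 and signalling genes 3 DN3 genes were higher and 1 lower, and 4 DP genes were higher and 2 lower, with a median of 0.12 for each list against 0.32 over all genes. The 10 neutrophil markers rose in the same libraries, and their part in these counts was not tested.

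In the survival arm 0 genes of each of these lists were called. At an unadjusted limma p under 0.05 there were 5 of 14 stage factors, 5 of 11 mature genes, 1 of 12 progenitor genes, 1 of 8 DN3 genes, 2 of 10 DP genes, 2 of 5 gamma delta genes and 1 of 15 end-joining genes, against 8.74% of all genes. The summed mature list was 15033, 16876, 8996, 8761 and 10220 in knockouts 1 to 5, and 5859 to 8469 in controls. For the gamma delta list the sums were 13219, 13067, 9248, 8683 and 8866, and 6934 to 10531 in controls. Knockouts 1 and 2 were the highest for both lists, and their part in these counts was not tested. Over the 20 libraries, centred on their group means, the genes closest to Rag1 by Pearson correlation included Fbxl12 (0.917), Serinc5 (0.914), Syt14 (0.908) and Ston1 (0.90). Among the members the correlation with Rag1 was 0.922 for Cd8a, 0.826 for Cd8b1, 0.808 for Rag2 and 0.808 for Ptcra. It was 0.119 for Il2ra and -0.079 for Dntt, with negative values for Kit (-0.387) and Cd44 (-0.588). These values describe likeness among libraries that share their scaling and cell composition. They include survival knockouts 1 and 2, the lowest of their arm in Rag1, Cd8a and Ptcra, and the part of that pair was not tested.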

How the data were processed

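RNA-seq of 20 libraries from leukemic mouse spleens was analysed from 2 tables that the authors deposited, each holding a signal of DESeq-normalized counts per gene and library. Per the submitters' processing notes, the authors used kallisto 0.46.0, build GRCm39 and DESeq. The sources used here give no annotation, gene-level step or filter. Each table was normalized on its own, so each fold change was taken within its table. Totals were 19432235 to 21623571 per library. Of low values, 57.8 to 83.1% lay within 0.1 of a whole step, so whole reads were not recovered.

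From log2(normalized count + 1), limma 3.58.1 (lmFit, eBayes with trend; R 4.3.3) was run on genes reaching 10 in at least 4 (acute) or 5 (survival) libraries, with Benjamini-Hochberg adjustment over all genes tested and calls at an adjusted p under 0.05. Fold changes on this scale understate low genes. The difference between arms compared these fold changes in a fit over all 20 libraries. Ratios were compared by exact permutation (scipy 1.17.1), adjusted over 12 tests. Levels per kilobase used GENCODE transcripts of build GRCm38, matched by symbol. The fit was tested on simulated data with normal noise set by the spread of controls in both groups. A wider spread or a changed cell mix among knockouts was not simulated.

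Members and lists were chosen with earlier results of these data known. Named were the members, Acly, in each list the 3 called genes of largest change with a mean of at least 50, leading markers of other cell types and the 5 genes closest to Rag1; Trac, Trbc1, Trbc2 and list genes named by level were chosen after their values were seen. A few genes that this rule names are not reported here. Alternatives changed the pseudocount, filter, scaling, variance model, covariate, block and libraries. Leaving out survival knockouts 1 and 2 was added after the data were seen.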

Additional observations from a re-analysis of the deposited data

Results flagged for a closer look

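In 64 groups of values, 2 had a library far from the rest, where chance would give about 3.2. The normalized count of Dntt was lowest in acute control 1, at 19264, and the log2 ratio of Rag2 to Rag1 was lowest in the same library, at -3.84.

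For 8 members the survival fold change differed from the acute one in a test of the difference itself. The log2 differences, survival less acute, were 0.52 for Rag1, 0.56 for Rag2, 0.49 for Dntt, 0.39 for Cd8a, 0.40 for Cd8b1, 0.56 for Il2ra, -1.61 for Kit and -2.24 for Cd44 (limma adjusted p from 3.12e-05 to 0.04). The acute knockouts also had a higher score of other cell types than their controls (0.32 to 1.42 against -0.92 to -0.27), while the survival groups overlapped, and the part of this in the differences was not tested.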

How the results depend on the processing

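In the acute arm 5140 genes were called, against 7822 with CD3 scaling (7677 higher, 145 lower), 7449 with Trbc scaling (7355 higher, 94 lower), 6463 with quantile scaling (2318 higher, 4145 lower), 2039 without knockouts 2 and 3 and 0 with the score of other cell types. With that score 0 members were called and Il2ra turned to 0.015. Cd8b1 turned to 0.052 with Trbc scaling and 0.026 with CD3 scaling. Leaving out 1 library gave 9 to 10 members.

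In the survival arm 2 genes were called, 4 with a minimum of 50, 1 with Trbc or CD3 scaling and 1 to 22 leaving out 1 library, the highest without control 4; 0 members were called throughout. For the difference, 3173 genes and 8 members were called: 6956 and 2 with Trbc scaling, where Cd8a (-0.066) and Cd8b1 (-0.056) turned, 5016 and 3 with CD3 scaling, 1 and 0 with the score, 1263 and 3 without acute knockouts 2 and 3, and 4 to 8 members leaving out 1 library. Rag2 and Cd8a lost their calls most often, each under 19 of 32 alternatives. The cause was not tested.

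The 3 ratio calls became 0 without acute knockouts 2 and 3 or survival knockouts 1 and 2, and 0 to 4 leaving out 1 library; smaller designs may be unable to pass. With the replicate number as a block, 3294 acute genes and 9 members were called, and 7 members for the difference. Same-numbered libraries correlated at -0.066 to 0.142, and with groups this small that does not show whether they share more than a number. Depth limits Kit and the low stage genes, and a bulk value cannot separate cell number from RNA per cell.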

Other observations

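Stage genes outside the 10 lay apart at the survival endpoint without passing the correction over all genes; they were picked after their values were seen. Id3, an inhibitor of E proteins, averaged 990 ± 79.5 normalized counts in knockouts and 676 ± 63.5 in controls (SD, n = 5 each), with no overlap (log2 fold change 0.55, SE 0.0822, limma adjusted p = 0.0617). Icos, a costimulatory receptor of activated T cells, averaged 232 ± 132 in knockouts and 76.8 ± 18.4 in controls, with no overlap (1.43, SE 0.321, adjusted p = 0.219). Groups without overlap made up 2.01% of the genes tested in that arm.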
